A study of Mus musculus with 2 samples.

Results

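The 10 genes described here are markers of resident and of alternatively activated macrophages: Retnla, Arg1, Mrc1, Chil3, Cd163, Folr2, Lyve1, Timd4, Vsig4 and F13a1. Each was found by its symbol, 10 of 10, among the 32285 gene rows of the deposited matrices, and their raw UMIs (unique molecular identifiers, each counting 1 captured transcript) were followed through every cell class. The tissue was synovium, the lining of joints, from knees of wild type mice. There were 2 single-cell libraries, 1 per group. The MMS library pooled 20 knees of mice labelled MMS and D14, and the control library pooled 20 knees of control mice, with no such number. The labels do not spell out MMS, give no treatment for the controls and state neither age nor sex, and both groups shared the genotype and the enzymatic digestion. Goblet cells are named as the cell type in the labels, which the data go against. No kept cell held UMIs of at least 2 of the 8 goblet markers, 0 of 3765 in MMS and 0 of 6891 in control, which allows shares of up to 0.0797% and 0.0435%. With 1 library per group there is no replicate error and no test was made, so each interval printed is a 95% interval for counting error between these libraries.

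Interleukin 4 and interleukin 13 act through the interleukin 4 receptor and the transcription factor STAT6 to switch macrophages to alternative activation, with Retnla, Arg1, Chil3 and Mrc1 among the classic mouse target genes. Long-lived resident macrophages of many tissues instead carry receptors that clear dying cells, haemoglobin, complement-coated particles and glycans, such as Timd4, Cd163, Vsig4, Mrc1, Folr2 and Lyve1. In mouse synovium, macrophages with Cx3cr1, Trem2 and Vsig4 form a barrier-like layer at the lining, and interstitial macrophages lie beneath it, among them cells rich in Retnla and cells rich in MHC class II.

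The promoters of the secreted effectors Retnla and Chil3 are shown as those of secreted effectors among the 10 genes, and that of Retnlg because this close relative of Retnla was read almost entirely in neutrophils. The windows run from 250 bases before to 50 bases after the start in RefSeq (GRCm38.p6), for Retnla on the plus strand of chr16:48842359-48842658, for Retnlg on the plus strand of chr16:48872358-48872657 and for Chil3 on the minus strand of chr3:106167515-106167814. Capitals mark matches, on either strand, to 4 motifs: TTCNNNNGAA (the spacing STAT6 prefers), TTCNNNGAA (the spacing of other STAT proteins), GAGGAA (the core read by the myeloid factor PU.1) and TATAAA.
Retnla: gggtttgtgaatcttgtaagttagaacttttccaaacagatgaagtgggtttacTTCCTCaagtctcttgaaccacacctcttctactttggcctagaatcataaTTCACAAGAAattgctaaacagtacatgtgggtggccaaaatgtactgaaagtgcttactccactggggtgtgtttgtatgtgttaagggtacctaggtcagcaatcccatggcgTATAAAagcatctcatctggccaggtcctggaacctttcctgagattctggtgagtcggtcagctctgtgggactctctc
Retnlg: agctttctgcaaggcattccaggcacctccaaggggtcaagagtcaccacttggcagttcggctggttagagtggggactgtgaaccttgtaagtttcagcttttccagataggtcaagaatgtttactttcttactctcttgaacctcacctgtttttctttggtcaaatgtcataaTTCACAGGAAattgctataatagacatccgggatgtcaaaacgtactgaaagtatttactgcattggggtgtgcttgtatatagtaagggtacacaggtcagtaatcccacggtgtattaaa
Chil3: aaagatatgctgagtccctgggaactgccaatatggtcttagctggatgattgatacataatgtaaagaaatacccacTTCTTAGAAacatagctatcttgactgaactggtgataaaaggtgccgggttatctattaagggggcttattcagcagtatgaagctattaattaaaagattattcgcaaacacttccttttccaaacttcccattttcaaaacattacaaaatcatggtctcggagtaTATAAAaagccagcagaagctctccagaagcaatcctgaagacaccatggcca
The Retnla window held TTCNNNNGAA at -145 from the start, GAGGAA on the opposite strand at -196 and TATAAA at -30, none of them overlapping. The Retnlg window held the same STAT6-type spacing at -72, and the aligned windows of Retnla and Retnlg were 79.1% identical. Chil3 held no TTCNNNNGAA match, with TTCNNNGAA at -172 and TATAAA at -3. Of all 32851 promoter windows, 6.95% held TTCNNNNGAA, 8.30% TTCNNNGAA, 28.3% GAGGAA and 13.6% TATAAA. RefSeq windows of Mrc1, Cd163, Folr2, Timd4, Vsig4 and F13a1 held neither STAT spacing. A match describes the letters of the window and shows no binding.

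Filtering left 3765 MMS cells at a median depth of 17444 UMIs and 6891 control cells at 10990 UMIs. The libraries shared 6 barcodes, 4 of them among kept cells. The macrophage or monocyte-like class held 526 MMS cells (13.97% of kept cells, 12.9 to 15.1) and 1183 control cells (17.2%, 16.3 to 18.1), with median depths of 14692 and 12761 UMIs and 8067897 and 15732906 UMIs in all. Its 3 clusters each had C1qa, C1qb and C1qc among their top 10 genes. Cluster 18 was lining-like, with the lining markers Cx3cr1 and Trem2 at 408 and 1010 CPM (UMIs per 1000000 UMIs of the same cells, here both libraries together), and Pmepa1, Cspg4 and S100b led it over other macrophages. Cluster 3 was interstitial resident-like, led by Ccl8, Cd209f and Cd209g. Cluster 4 was rich in MHC class II (H2-Ab1 at 8425 CPM) and in the monocyte receptor Ccr2 (1185 CPM). Clusters 18, 3 and 4 made up 77.0%, 12.5% and 10.5% of the MMS class, against 46.5%, 39.7% and 13.8% of the control class. A value over the whole class therefore rests mainly on cluster 18 in MMS and on clusters 18 and 3 in control.

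Among the effectors of alternative activation, Retnla was far lower in MMS macrophages, while Arg1 was higher from very few UMIs. Chil3 was higher in the main setting and in 16 of 17 alternatives, but lower in 1, so its direction was not stable. Retnla (chromosome 16 at 48842551 to 48844461 in GRCm38, plus strand) encodes RELM alpha, a secreted cysteine-rich protein. It had 1661 UMIs (206 CPM) in MMS macrophages and 58017 UMIs (3688 CPM) in control macrophages, a log2 ratio of MMS over control of -4.16 (-4.23 to -4.09). It was seen in 40 of the 526 MMS and 390 of the 1183 control cells. With every cell thinned to 2000 UMIs, which left out 8 MMS and 11 control cells, 4.44% (2.84 to 6.59) of MMS and 22.0% (19.7 to 24.5) of control macrophages held it. The free RNA background, taken from fibroblast-, endothelial- and mural-like cells of the same library at the same depth, was 0.0902% in MMS and 1.89% in control. Retnla was thus above that background in both libraries.

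Arg1 (chromosome 10 at 24915221 to 24927484, minus strand), the arginase that turns arginine into ornithine, had 92 UMIs (11.4 CPM) in 36 MMS macrophages and 13 UMIs (0.826 CPM) in 12 control macrophages. The log2 ratio was 3.79 (2.94 to 4.75). At 2000 UMIs the share was 1.54% (0.669 to 3.02) in MMS, and in control 0 of 1172 cells, which allows a share of up to 0.256%. The background was 0.0451% in MMS and 0.0484% in control. So the gene was detectable in a small minority of MMS macrophages. A single MMS cell held 18 of the 92 UMIs.

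Chil3 (chromosome 3 at 106147554 to 106167564, minus strand) encodes Ym1, a secreted chitinase-like lectin. It had 190 UMIs (23.6 CPM) in 25 MMS macrophages and 81 UMIs (5.15 CPM) in 3 control macrophages, a log2 ratio of 2.19 (1.81 to 2.59). This value leans on few cells: 1 control cell held 57 of the 81 UMIs. The ratio also turned to -2.48 (-4.80 to -0.86) with a mitochondrial limit of 5%, which kept 156 MMS and 625 control macrophages, and was 6.22 at a cluster resolution of 2.0. The direction of Chil3 in macrophages is therefore not settled by these libraries. Its transcript end is 90.0% identical to that of Chil4 with 275 shared stretches of 50 bases, so reads of these paralogs can be confused, although Chil4 itself was listed with 1 UMI in the classes examined.

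The receptors of resident macrophages were lower in the MMS class by smaller amounts. Timd4 (chromosome 11 at 46810800 to 46844332, plus strand), a phosphatidylserine receptor for dying cells and a marker of long-lived macrophages, had 53.4 CPM in MMS and 107 CPM in control, log2 ratio -1.0 (-1.16 to -0.85). Its share at 2000 UMIs was 7.34% (5.24 to 9.93) in MMS and 18.9% (16.7 to 21.2) in control. Lyve1 (chromosome 7 at 110850607 to 110863239, minus strand), a hyaluronan receptor shared with lymphatic vessels, had 1199 CPM in MMS and 2070 CPM in control, log2 ratio -0.79 (-0.82 to -0.76). It was seen in 54.8% (50.4 to 59.2) of MMS and 76.8% (74.3 to 79.2) of control macrophages at equal depth, the widest gap in share among the 10 genes. Folr2 (chromosome 7 at 101839988 to 101857194, minus strand), a folate receptor, had 782 CPM in MMS and 1325 CPM in control, log2 ratio -0.76 (-0.80 to -0.72), with shares of 64.9% (60.6 to 69.0) and 79.5% (77.1 to 81.8). For these 3 receptors the share of positive cells and the level were lower together.

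Cd163 (chromosome 6 at 124304656 to 124330527, plus strand), the scavenger receptor for haptoglobin-bound haemoglobin, had 287 CPM in MMS and 389 CPM in control, log2 ratio -0.44 (-0.51 to -0.37), and was seen in 26.4% (22.7 to 30.5) of MMS and 38.4% (35.6 to 41.2) of control cells at 2000 UMIs. Vsig4 (chromosome X at 96247203 to 96293438, minus strand), a complement receptor, differed little, with 1346 CPM in MMS and 1524 CPM in control, log2 ratio -0.18 (-0.21 to -0.15), and shares of 36.5% (32.3 to 40.8) and 39.2% (36.4 to 42.1). Mrc1 (chromosome 2 at 14229392 to 14332057, plus strand), the mannose receptor CD206, was also close, with 871 CPM in MMS and 966 CPM in control, log2 ratio -0.15 (-0.19 to -0.11), and shares of 68.1% (63.9 to 72.1) and 70.0% (67.3 to 72.6). Over the whole class Mrc1 was slightly lower, yet it was higher in each of the 3 clusters, as described further on. F13a1 (chromosome 13 at 36867178 to 37050244, minus strand) encodes the catalytic chain of clotting factor XIII, a transglutaminase that macrophages make. Its level was 1381 CPM in MMS and 1404 CPM in control, log2 ratio -0.02 (-0.06 to 0.01), so these data show no difference beyond counting error. The free RNA background of the 6 receptors was at most 0.406% in MMS and 0.847% in control. For F13a1 it was 1.24% in MMS and 1.34% in control endothelial-like cells, since fibroblast-like cells read this gene themselves. Its sign was not stable, with 0.16 under the same sub-cluster makeup, which used 1163 cells.

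In all, 8 of the 10 genes were lower in MMS macrophages and 2 were higher, with a median log2 ratio of -0.31. Over the 13189 genes with at least 10 UMIs, 48.8% were lower and the median was 0.01. Past 2-fold, 2 of the 10 were lower (Retnla and, at the line itself, Timd4), beside 5.32% of all genes. The 2 higher genes, Arg1 and Chil3, were both past 2-fold, beside 4.31% of all genes, though the direction of Chil3 was not settled. The number lower stayed between 6 and 9 of 10 under the alternatives tried.

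**Figure D1:**
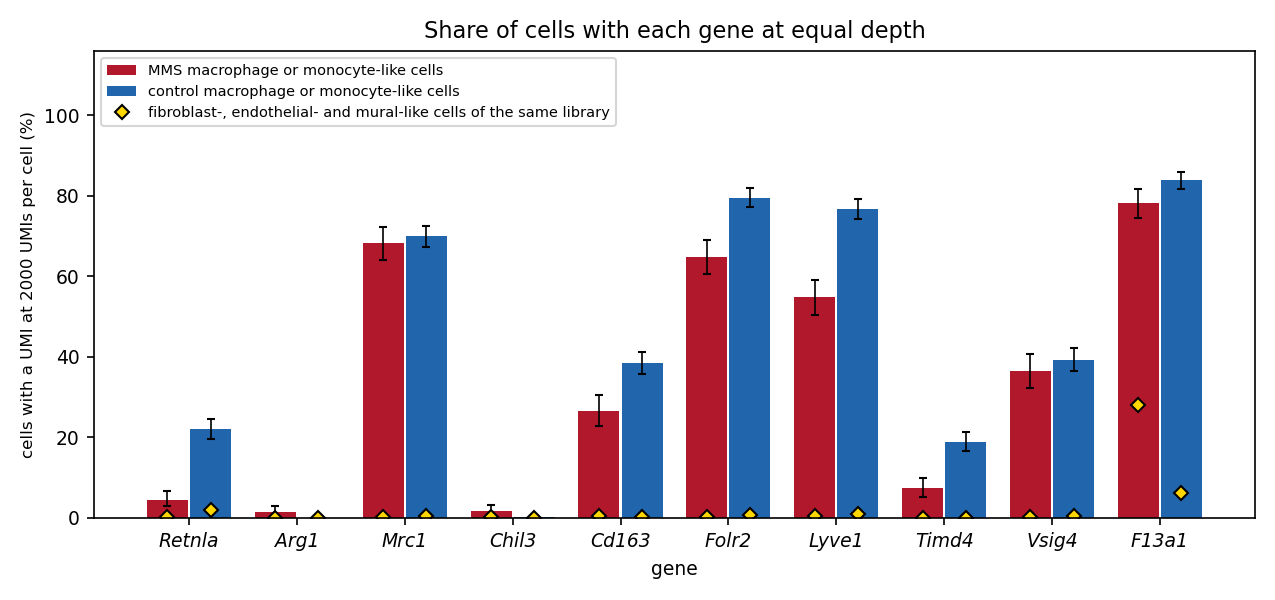
Share of macrophage or monocyte-like cells with a UMI of each gene (%, y axis) after thinning every cell to 2000 UMIs; red bars, 518 MMS cells; blue bars, 1172 control cells; whiskers, exact 95% binomial intervals for counting error; yellow diamonds, fibroblast-, endothelial- and mural-like cells of the same library. Retnla (4.44% against 22.0%) and Lyve1 (54.8% against 76.8%) stand clearly lower in MMS, Mrc1 (68.1% against 70.0%) does not, and F13a1 alone has a high diamond (28.0% in MMS and 6.12% in control).

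Within the clusters, the 10 genes did not all stand in 1 direction. In cluster 18 (405 MMS and 550 control cells), 5 genes were lower and 5 higher, beside 48.9% of all 12099 genes lower. The lower ones were Retnla, Folr2, Lyve1, Timd4 and Vsig4. Lyve1 had 1432 CPM in MMS and 3091 CPM in control (log2 ratio -1.11, -1.14 to -1.07), Vsig4 1665 CPM and 2938 CPM (-0.82, -0.85 to -0.79) and Timd4 63.3 CPM and 138 CPM (-1.13, -1.30 to -0.96). The Vsig4 ratio in cluster 18 was thus further from 0 than over the class, and cluster 18 held 98.8% of the MMS and 94.5% of the control Vsig4 UMIs. In a finer clustering described further on, sub-cluster 4 was the one named lining (44 MMS and 232 control cells). Vsig4 was 3500 CPM in MMS and 3307 CPM in control there, and Lyve1 2196 CPM and 2937 CPM. The part of sub-cluster makeup in the cluster 18 ratios was not tested. With equal depth, 45.4% (40.4 to 50.4) of MMS and 71.2% (67.2 to 74.9) of control cluster 18 cells held Vsig4, and 64.8% (59.9 to 69.5) against 96.7% (94.9 to 98.04) held Lyve1.

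The higher genes of cluster 18 were Mrc1, Cd163, F13a1, Arg1 and Chil3. Mrc1 had 745 CPM in MMS and 506 CPM in control (log2 ratio 0.56, 0.50 to 0.62) and Cd163 286 CPM and 194 CPM (0.56, 0.46 to 0.66). F13a1 had 1504 CPM in MMS and 1252 CPM in control (0.26, 0.22 to 0.30). Arg1 was held mainly here, with 87 of the 92 MMS UMIs, against 7 of the 13 in control, a log2 ratio of 3.89 (2.79 to 5.25). Chil3 had 22 UMIs in MMS and 0 in control, at least 3.13 higher on the log2 scale. At equal depth, 0.249% (0.00631 to 1.38) of MMS cluster 18 cells held Chil3. The free RNA background of Chil3 was 0.135% (0.0279 to 0.395) in MMS and 0% in control. The MMS intervals overlap, and the part of free RNA in this Chil3 value was not tested. Fibroblast markers, 9 of 9 with UMIs, summed to 526 CPM in MMS and 196 CPM in control cells of cluster 18, and to 101942 and 62488 CPM in fibroblast-like cells. Their part in the F13a1 value was not tested.

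In cluster 3 (66 MMS and 470 control cells), 7 of the 8 genes with enough UMIs were lower, beside 48.9% of 11082 genes. Timd4 had 31.5 CPM in MMS and 112 CPM in control (log2 ratio -1.84, -2.50 to -1.24), Retnla 521 CPM and 1749 CPM (-1.75, -1.90 to -1.60), Lyve1 602 CPM and 1588 CPM (-1.40, -1.54 to -1.26) and Folr2 735 CPM and 1611 CPM (-1.13, -1.26 to -1.01). Mrc1 was again higher, 2442 CPM in MMS and 1917 CPM in control (0.35, 0.28 to 0.42). Cd163 (-0.33, -0.47 to -0.19) and F13a1 (-0.23, -0.31 to -0.15) were lower here, the reverse of cluster 18. Vsig4, at 181 CPM in MMS and 191 CPM in control, did not differ beyond counting error.

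Cluster 4, the MHC class II high cluster (55 MMS and 163 control cells), held 1238 of the 1661 MMS and 47594 of the 58017 control Retnla UMIs, 74.5% and 82.0%. Its Retnla level was 1388 CPM in MMS and 17326 CPM in control, log2 ratio -3.64 (-3.72 to -3.56), and 21.2% (11.1 to 34.7) of MMS against 65.4% (57.6 to 72.7) of control cells held it at equal depth. Of the 10 genes, 7 were lower in cluster 4, beside 44.9% of 10173 genes. Arg1, counted among the higher ones, had 4 UMIs in each library, under the 10 UMIs needed over both libraries of all genes. Several resident receptors had few UMIs in MMS cells there: Lyve1 and Vsig4 had 1 UMI each in MMS, against 370 and 318 in control (log2 ratios -6.91, -12.2 to -4.42, and -6.69, -12.0 to -4.20), and Timd4 had 0 against 21, at least 1.18 lower on the log2 scale. The control UMIs of Lyve1 and Vsig4 lay in 12.3% and 5.52% of cells, and at 2000 UMIs the intervals of the shares overlapped, 0 to 6.85% in MMS against 3.89 to 12.6% in control for Lyve1 and 0 to 6.85% against 1.75 to 8.70% for Vsig4. Cd163 had 19.1 CPM in MMS and 186 CPM in control (-3.29, -4.08 to -2.60). Chil3 was higher, 188 CPM in MMS and 29.5 CPM in control (2.68, 2.28 to 3.08), and Mrc1 slightly so (0.22, 0.06 to 0.38). Dendritic markers, 9 of 9 with UMIs, summed to 798 CPM in MMS and 689 CPM in control cells of this cluster, against 1678 and 2035 CPM in dendritic-like cells. Their part in these values was not tested.

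Mrc1 thus had log2 ratios of 0.35, 0.22 and 0.56 in clusters 3, 4 and 18, but -0.15 over the class. Control macrophages had 66.6% of their Mrc1 UMIs in cluster 3 and MMS macrophages 25.4%. With both libraries weighted to the same makeup of the 3 clusters, an alternative chosen after seeing the data, the Mrc1 log2 ratio was 0.41, Retnla was at -3.05, Cd163 at -0.08 and Vsig4 at -0.80. With the same makeup of sub-clusters Mrc1 stayed lower, at -0.12, Retnla was at -3.24, Cd163 at -0.14 and Vsig4 at -0.11. That weighting used 1163 cells, in the 6 sub-clusters with at least 10 cells in each library. It left out, among others, sub-clusters 0 (36 MMS and 1 control cells), 5 (8 and 184) and 11 (4 and 260). The sign of Mrc1 and the size of the Vsig4 ratio thus differed between these weightings, which do not cover the same cells.

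**Figure D2:**
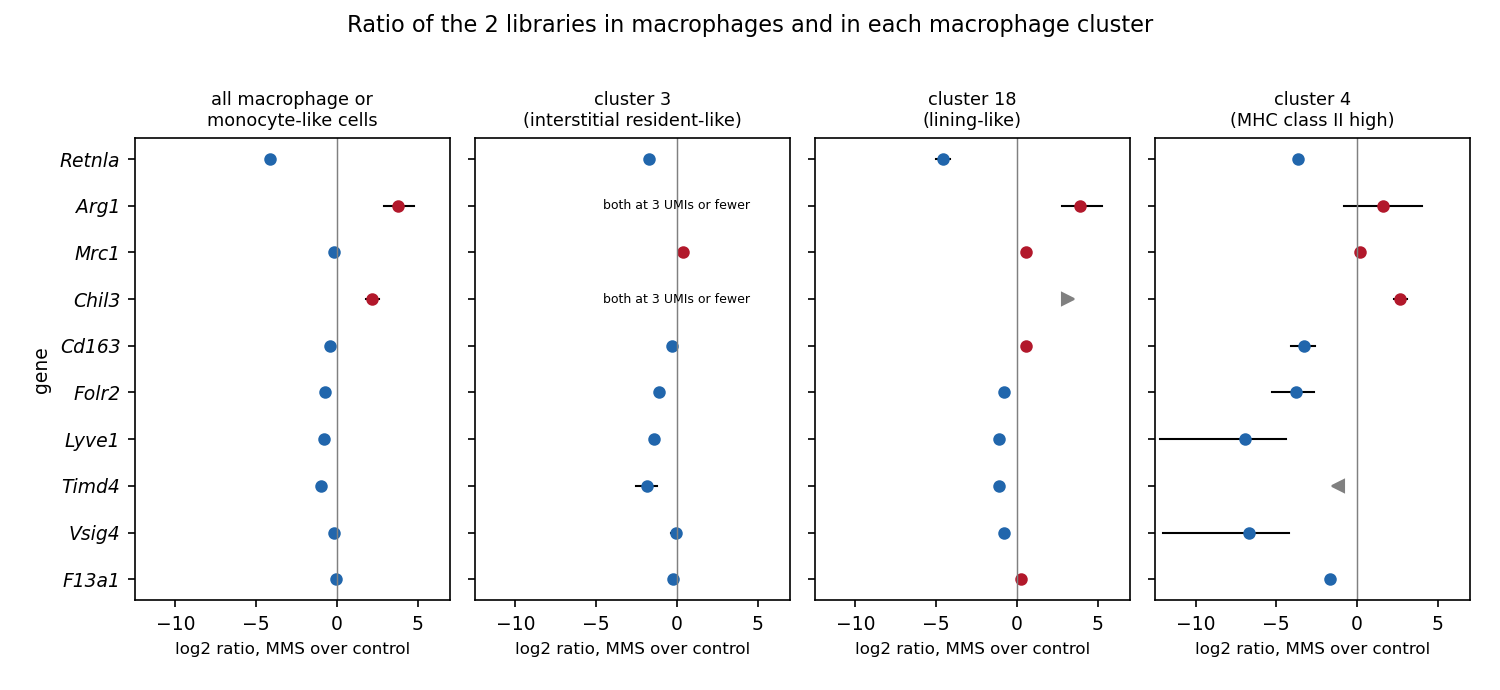
Log2 ratio of MMS over control (x axis) of each gene in the whole macrophage or monocyte-like class and in clusters 3, 18 and 4; blue points are lower in MMS, red points higher, and lines are exact 95% intervals for counting error. Grey triangles are bounds for genes with 0 UMIs in a library (Chil3 in cluster 18 and Timd4 in cluster 4), Mrc1 lies right of 0 in each cluster and left of it in the class, and Retnla lies left of 0 in every panel.

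A second clustering of the macrophages alone, made without the 10 genes, gave 12 sub-clusters, and the MHC class II high subset was the only named one with at least 50 cells in each library (60 MMS and 378 control cells). There, 8 of the 10 genes were lower, beside 49.1% of 10944 genes. Arg1, counted among the higher ones, had 2 UMIs in MMS and 6 in control, under the 10 UMIs needed of all genes. Retnla had 1493 CPM in MMS and 10943 CPM in control (log2 ratio -2.87, -2.96 to -2.79), and Folr2, Lyve1 and Vsig4 were at -2.49, -2.65 and -3.41. Mrc1 was lower in this subset (-0.37, -0.48 to -0.26), unlike in cluster 4, and the subset took in sub-cluster 5 with 8 MMS and 184 control cells. When the 10 genes were kept for clustering, 5 were lower in the subset of that name, so the count of 8 did not hold. The 49.1% of all genes is from the main setting.

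Over the 11 sub-cluster and library units of at least 30 cells, the highest Retnla level was in control sub-cluster 8 (MHC class II high, 112 cells), at 19996 CPM in 80.4% of cells. Among MMS units it reached 993 CPM in sub-cluster 7 (31 cells) and was 1.42 CPM in lining-like sub-cluster 4 (44 cells). The highest Mrc1 of any unit, 3068 CPM, was in MMS sub-cluster 0 (36 cells, unnamed, led by Ccl8), which also held Retnla at 618 CPM. Arg1 was highest in MMS sub-cluster 3, the lipid-associated-like cells (168 cells), at 25.8 CPM in 11.9% of cells, against 3.57 CPM in MMS sub-cluster 2 (189 cells, unnamed, with lining markers scoring highest). These MMS sub-clusters also differed in Vsig4 and Lyve1. Vsig4 was 416 CPM in sub-cluster 3 and 2164 CPM in sub-cluster 2, and Lyve1 was 750 CPM and 1611 CPM. Sub-clusters 3 and 2 held 19 and 15 control cells, so sub-cluster and library cannot be told apart there. Sub-clusters 1 (5 MMS and 5 control cells) and 9 (4 and 21) were led by fibroblast and by endothelial genes.

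**Figure D3:**
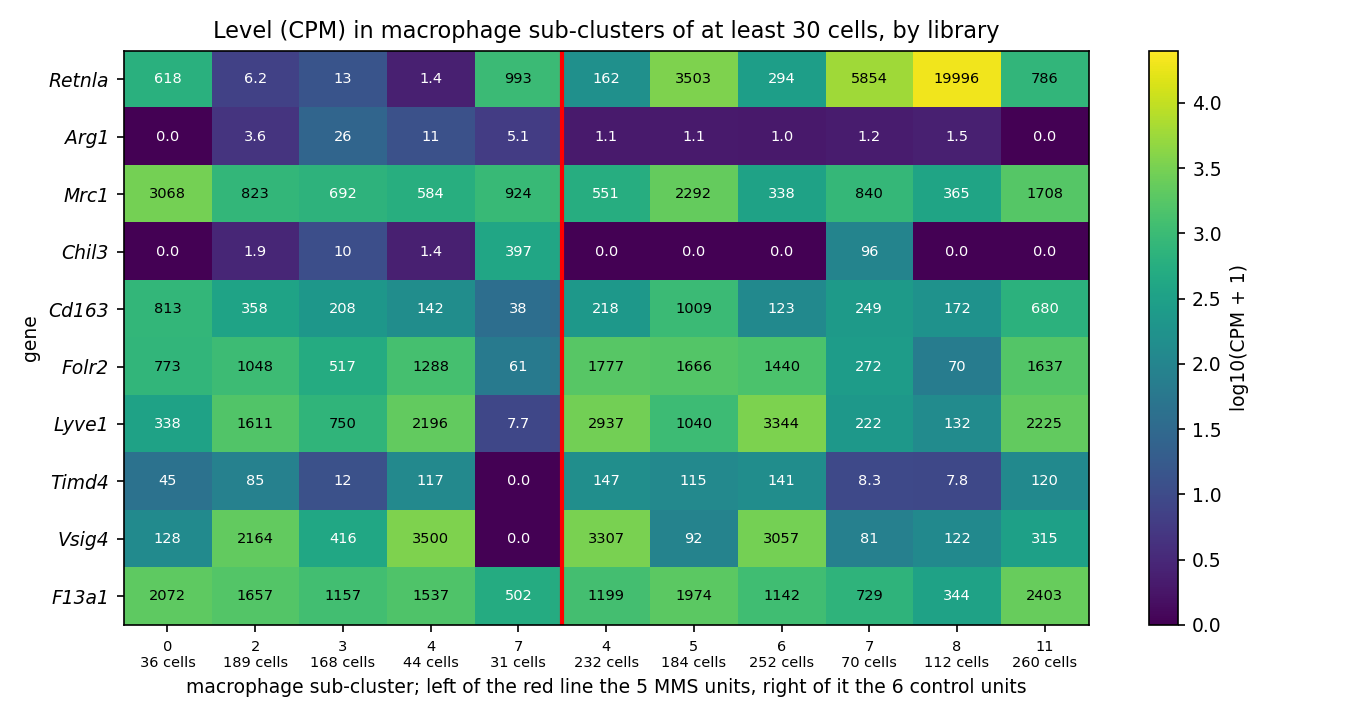
Level of each gene (CPM, printed in each cell; colour, log10 of CPM + 1) in the macrophage sub-clusters of at least 30 cells, with the 5 MMS units left of the red line and the 6 control units right of it. Retnla is brightest in control sub-cluster 8 (19996 CPM), and MMS sub-cluster 3 has the highest Arg1 (25.8 CPM) with Vsig4 at 416 CPM.

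UMIs of the genes were spread over cells in different ways. Retnla was held by few cells: 6 MMS cells with over 100 UMIs had 77.8% of its UMIs in MMS macrophages, and 118 such control cells had 93.0% in control. The highest cell held 372 UMIs in MMS and 3089 in control. Without the 5 highest cells of each library the level was 59.1 CPM in MMS and 3069 CPM in control, a log2 ratio of -5.70, so a larger part of the MMS level rests on 5 cells. By contrast, Mrc1 was found in 94.7% of MMS and 94.9% of control cells before thinning, and its highest cell held 0.925% and 0.665% of its UMIs. Vsig4 was split between cells without it and cells with a median of 45 UMIs in each library, in 40.5% of MMS and 44.0% of control cells.

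The number of the 10 genes seen in a cell was lower in MMS. At 2000 UMIs, MMS macrophages held 3.44 of the genes on average and control macrophages 4.29. At least 3 were seen in 71.2% (67.1 to 75.1) of MMS and 88.1% (86.1 to 89.9) of control cells, at least 5 in 30.3% (26.4 to 34.5) and 48.9% (46.0 to 51.8), and none in 5.41% and 1.54%. The order was the same in each cluster, with means of 3.57 in MMS and 4.69 in control cells of cluster 3, 1.06 and 2.17 in cluster 4, and 3.73 and 4.57 in cluster 18. These shares move with depth, and unthinned cells held at least 3 of the genes in 87.3% of MMS and 96.6% of control macrophages.

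In lining-like cells, the shares of Lyve1 and Folr2 with and without Vsig4 lay further apart in MMS, but the macrophages of each library were mostly of different sub-clusters. Over the whole class, sub-clusters 2 and 3 held 189 and 168 MMS cells but 15 and 19 control cells, and sub-clusters 4 and 6 held 44 and 16 MMS cells but 232 and 252 control cells. The part of this makeup in the shares was not tested. Among MMS cells of cluster 18, Lyve1 was seen in 82.4% of the 182 cells with Vsig4 and in 50.2% of the 219 cells without it. In control cells of cluster 18 the shares were 97.4% of 390 and 94.9% of 158. Folr2 showed the same arrangement, 86.3% with and 61.6% without Vsig4 in MMS, against 93.8% and 87.97% in control. Timd4 was seen in 13.7% and 4.11% in MMS, against 25.4% and 19.0% in control. Mrc1 did not follow Vsig4, with 62.6% and 68.9% in MMS, against 55.4% and 57.6% in control. Nearly all control cells of the cluster held Lyve1 whether or not Vsig4 was seen, and MMS cells without Vsig4 were close to evenly split for Lyve1. Over all control cells of the cluster, Lyve1 was seen in 96.7% and Folr2 in 92.2%, which left these control shares little room to differ.

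**Figure D4:**
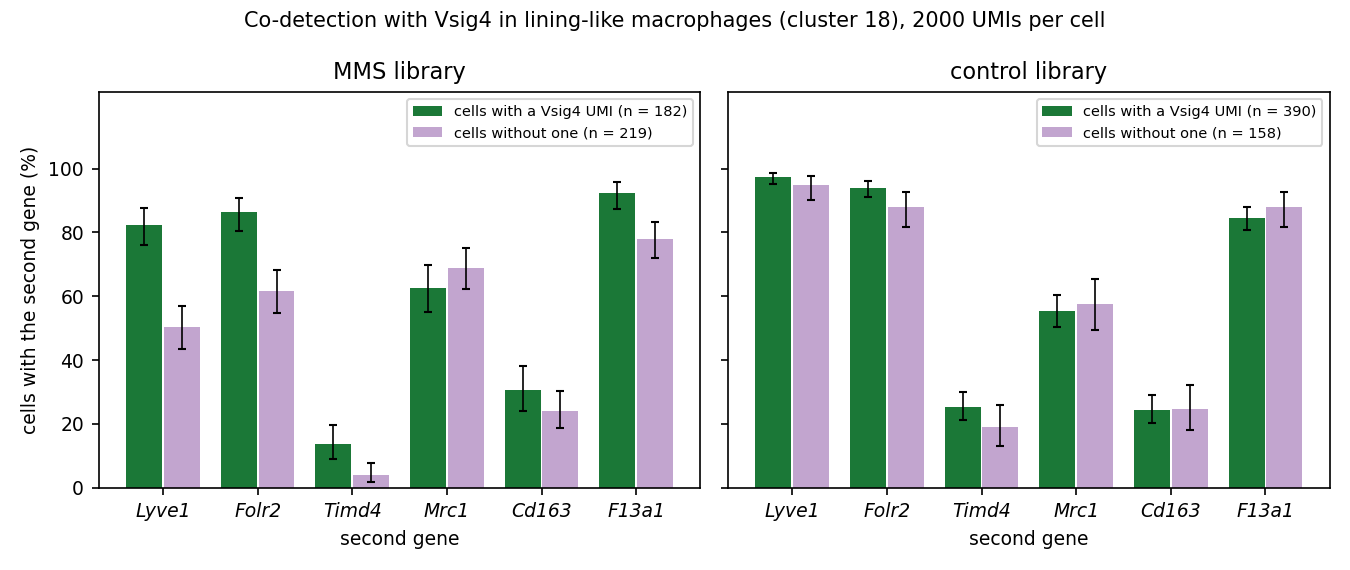
Share of lining-like (cluster 18) cells with a second gene (%, y axis) among cells with a Vsig4 UMI (green) and without (violet), at 2000 UMIs per cell, MMS left and control right; whiskers, exact 95% binomial intervals for counting error. Lyve1 is at 82.4% and 50.2% in MMS, against 97.4% and 94.9% in control.

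Over the whole control class, the shares of Lyve1 and Vsig4 also differed between cells with and without Retnla. Over control macrophages, Lyve1 was seen in 51.6% (45.3 to 57.8) of the 258 cells with Retnla and in 83.9% of the 914 cells without it, and Vsig4 in 16.3% (12.0 to 21.4) and 45.7%. Within control cluster 3 the Lyve1 share was 77.5% with and 77.5% without Retnla. Within control cluster 4, F13a1 was seen in 60.4% of the 106 cells with Retnla and 23.2% of the 56 cells without, and Cd163 in 35.8% and 16.1%. Arg1 was seen in 0 of the 23 MMS and 0 of the 258 control macrophages with Retnla, which allows shares of up to 13.04% and 1.16%. Without Retnla, Arg1 was seen in 1.62% of the 495 MMS and 0% of the 914 control macrophages at the same depth. Arg1 was thus too rare for these cells to show whether it and Retnla are held apart.

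Outside macrophages, 8 of the 10 genes had their highest level over classes of at least 20 cells in the macrophage or monocyte-like class, in each library. The exceptions in both were Chil3, highest in neutrophil-like cells, and Arg1, highest in T or NK-like cells. With thinned cells Retnla was highest in dendritic-like and Arg1 in osteoclast-like cells in MMS, at cluster resolutions of 0.5 and 2.0 F13a1 was highest in fibroblast-like cells in MMS, and at 2.0 Chil3 was highest in macrophages in control. Folr2, Lyve1, Timd4, Vsig4 and Mrc1 had from 93.0% to 98.7% of their kept UMIs in macrophages in each library. UMIs of them were also found in osteoclast-like cells (25 in MMS, 19 in control). Lyve1 was at 532 CPM in MMS and 1546 CPM in control there, and Folr2 at 367 CPM and 925 CPM. The macrophage marker C1qa was at 788 CPM in MMS and 3200 CPM in control cells of this class, and the control cells had a median of 1586 UMIs. The part of macrophage RNA in these values was not tested. Mrc1 was read in dendritic-like cells too, at 279 CPM in MMS (30 cells) and 229 CPM in control (199 cells). Retnla was at 158 CPM in MMS dendritic-like cells, against 784 CPM in control (log2 ratio -2.31, -2.63 to -2.01), but this value rests on 3 of 30 MMS and 25 of 199 control cells. At 2000 UMIs per cell it went the other way, with 917 CPM in MMS and 452 CPM in control, and 10.0% (2.11 to 26.5) and 6.03% (3.15 to 10.3) of cells. Cd163 was at 117 CPM in MMS and 303 CPM in control dendritic-like cells (-1.37, -1.75 to -1.01). Lyve1 in control endothelial-like cells came mostly from 3 cells with at least 2 lymphatic markers, which held 201 of its 233 UMIs.

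F13a1 was also read widely outside macrophages. Fibroblast-like cells had 1194 CPM in MMS and 246 CPM in control, log2 ratio 2.28 (2.25 to 2.31), and it was seen in 41.8% (39.2 to 44.5) of MMS and 10.0% (8.88 to 11.3) of control fibroblast-like cells at 2000 UMIs. Endothelial-like cells had 9.70 CPM in MMS and 9.22 CPM in control. Most of the fibroblast signal lay in cluster 10 (527 MMS and 251 control cells), which was rich in Prg4, the lubricin of the synovial surface (121726 and 90106 CPM). There F13a1 had 2476 CPM in MMS and 1390 CPM in control and was seen in 97.9% and 94.0% of cells. This cluster held 67.0% of all F13a1 UMIs of kept MMS cells and 26.0% of those of control, while macrophages held 17.0% and 69.0%. Mural-like cells also carried it in MMS, 433 CPM against 11.0 CPM in control, together with Prg4 at 22835 CPM against 1141 CPM. Neutrophil cluster 23 had 325 CPM in MMS and 363 CPM in control (152 and 12 cells). Antisense genes overlap F13a1 and Folr2, with 4 MMS and 5 control UMIs of Gm30489 and 172 MMS and 125 control UMIs of Gm10602 over all kept cells.

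Chil3 was read mainly in neutrophils in MMS. Neutrophil-like cells had 3271 CPM in MMS (312 cells) and 79.8 CPM in control (31 cells), log2 ratio 5.36 (4.64 to 6.20). Most of it was in cluster 23, at 4671 CPM in 97.4% of 152 MMS cells, against 133 CPM in 12 control cells, while cluster 12 had 318 CPM in 160 MMS cells and 0 UMIs in 19 control cells. Macrophages thus held 1.06% of the kept Chil3 UMIs in MMS and 83.5% in control. Neutrophil markers were also higher in MMS macrophages, where all 11 summed to 158 CPM in MMS (10 of 11 with UMIs, Ly6g at 0) and 10.9 CPM in control (5 of 11, with Retnlg, Ly6g, Elane, Ltf, Ngp and Camp at 0). In the 25 MMS macrophages with Chil3, these markers summed to 103 CPM, against 161 CPM in the 501 MMS macrophages without it. In the 3 control macrophages with Chil3 they summed to 51.4 CPM, against 10.8 CPM in the 1180 without. The part of neutrophil RNA in the Chil3 values was not tested. Of the 25 MMS cells, 11 were in cluster 4 and 14 in cluster 18. A single MMS T or NK-like cell held 133 Chil3 UMIs, all that this class had. The neutrophil label is weak in control: Elane, Mpo, Ltf, Ngp and Camp were at 0 there, and the mast cell protease gene Mcpt4 was read in 11 of the 19 control cells of cluster 12 and in 0 of its 160 MMS cells. The Chil3 ratio between the libraries in this class therefore sets unlike cells against each other.

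Arg1 was also read in lymphoid cells, which in control held more of its UMIs than any other class. Outside macrophages, MMS had 11 UMIs in cells of no named class and 5 in fibroblast-like cells. T or NK-like cells had 7 UMIs (30.2 CPM) in 7 of 27 MMS cells and 70 UMIs (167 CPM) in 21 of 67 control cells, log2 ratio -2.46 (-3.83 to -1.34). Of the 21 control cells with Arg1, 20 held the transcription factor Gata3, 19 Il7r, 18 the interleukin 33 receptor Il1rl1 and 18 Rora, against 30, 27, 16 and 26 of the 46 control cells of the class without Arg1. None of the 21 held the T cell receptor component Cd3e, which allows a share of up to 14.3%, against 23 of the 46 without Arg1. The T cell receptor gene Trbc2 was held by 15 of the 21 and 35 of the 46, and the cytotoxic granule gene Nkg7 by 10 and 21. In MMS, 6 of the 7 cells held Gata3 and Il1rl1, and 1 held Cd3e. These genes were looked up after the Arg1 values had been seen.

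**Figure D5:**
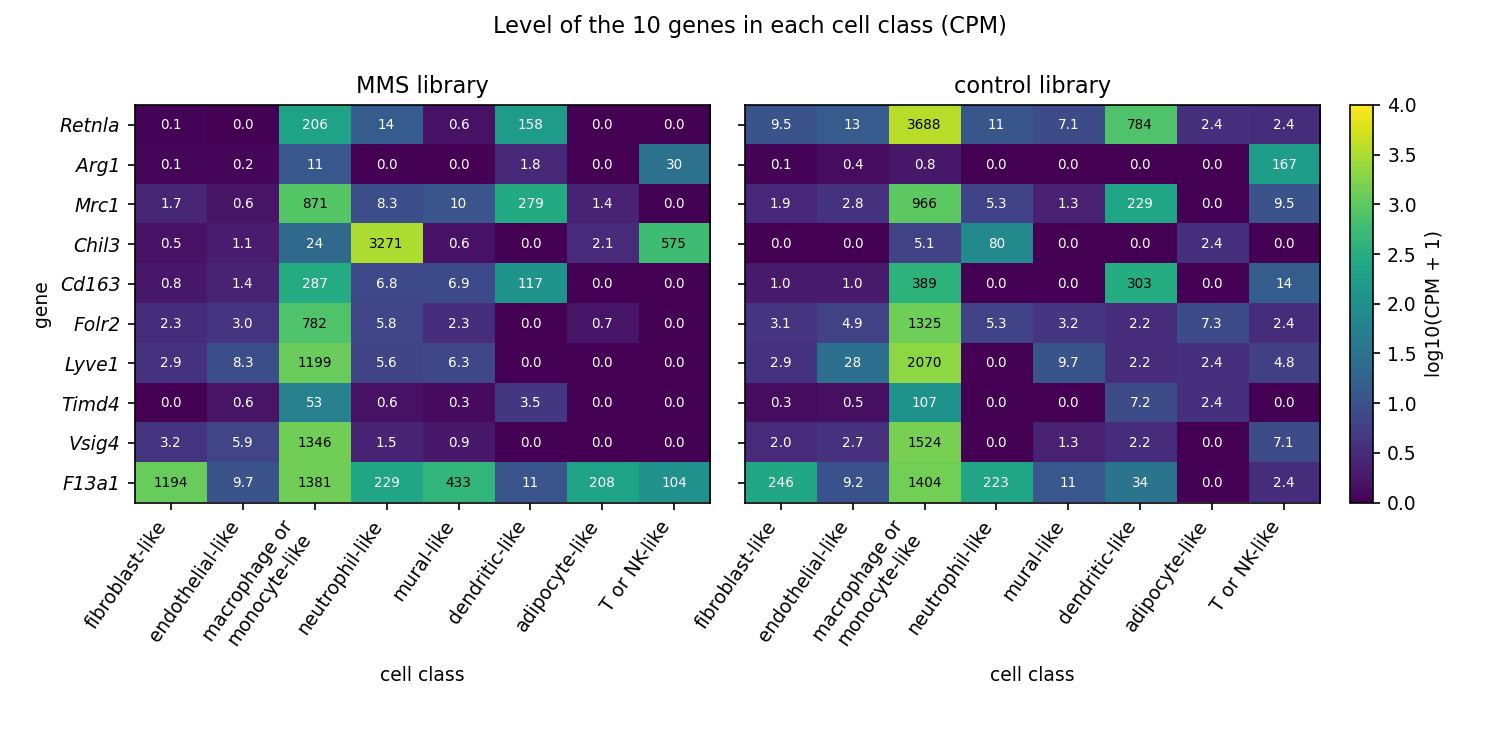
Level of the 10 genes (CPM, printed in each cell; colour, log10 of CPM + 1) in the cell classes with at least 20 cells in each library, MMS left and control right. F13a1 is high in fibroblast-like cells of MMS (1194 CPM against 246 CPM in control), Chil3 in neutrophil-like cells of MMS (3271 CPM against 79.8 CPM) and Arg1 in T or NK-like cells of control (30.2 CPM in MMS against 167 CPM).

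Genes related to the 10 were read in the same macrophages, by lists that hold none of them and overlap in a few genes such as Msr1. For comparison with every list below, 48.8% of all 13189 genes were lower. Past 2-fold, 5.32% of all genes were lower and 4.31% higher. Interleukin 4 and 13 receptors and signalling had 8 of 19 genes lower and 11 higher (median log2 ratio 0.08, and -0.051 with a mitochondrial limit of 5%), with 1 past 2-fold in each direction. Il4ra, the receptor chain shared by both cytokines, was at 151 CPM in MMS and 79.6 CPM in control (log2 ratio 0.93, 0.81 to 1.04), and Il10 at 37.6 CPM and 11.5 CPM (1.71, 1.44 to 1.98). The transcription factors Irf4 (-0.46, -0.66 to -0.26) and Cebpb (-0.44, -0.49 to -0.39) were lower. The Il4ra ratio is over the whole class, while 74.5% of MMS and 82.0% of control Retnla UMIs lay in cluster 4. A link between Il4ra and Retnla was not tested.

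Other targets of alternative activation had 11 of 18 genes lower and 7 higher (median -0.22, turned to 0.43 at cluster resolution 0.5), with 3 lower and 4 higher past 2-fold. The lectin Mgl2 was at 84.7 CPM in MMS and 277 CPM in control (-1.71, -1.83 to -1.59) and the chemokine Ccl24 at 108 CPM and 229 CPM (-1.08, -1.19 to -0.97). The arginine transporter Slc7a2 was at 36.8 CPM in MMS and 8.33 CPM in control (2.14, 1.84 to 2.45) and the interleukin 1 antagonist Il1rn at 25.7 CPM and 10.0 CPM (1.35, 1.05 to 1.66). Genes of this list lay on both sides. Ccl24 was among the top 10 genes of cluster 3, which was 12.5% of the MMS and 39.7% of the control class. Mgl2 was among those of sub-cluster 5 (8 MMS and 184 control cells). The part of this makeup in these values was not tested. In the list of arginine and polyamine genes, 5 of 12 were lower and 7 higher (median 0.14), 0 lower and 1 higher past 2-fold. Odc1, the first enzyme of polyamine synthesis, was higher (0.82, 0.61 to 1.03), and Ass1 (-0.26, -0.50 to -0.02) and Oat (-0.23, -0.37 to -0.09) were lower.

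Resident macrophage genes had 17 of 27 lower and 10 higher (median -0.13), with 3 lower and 4 higher past 2-fold. The interstitial lectins Cd209f, at 50.2 CPM in MMS and 229 CPM in control (-2.19, -2.34 to -2.04), and Cd209g (-2.20, -2.42 to -1.99) were lowest. The chemokine Ccl8 was at 635 CPM in MMS and 134 CPM in control (2.24, 2.17 to 2.32), and Tmem119 had 69 UMIs in MMS and 9 in control (3.90, 2.89 to 5.09). Cd209f, Cd209g and Ccl8 lead cluster 3, which was 12.5% of the MMS and 39.7% of the control class, and its part in these values was not tested. Scavenger and efferocytosis receptors had 4 of 14 lower and 10 higher (median 0.16), with 1 lower and 3 higher past 2-fold. Msr1 was at 200 CPM in MMS and 91.1 CPM in control (1.13, 1.03 to 1.24) and Cd300lf had 45 UMIs and 10 UMIs (3.13, 2.12 to 4.29). Cd209b (-2.55, -3.04 to -2.08) and Colec12 (-0.20, -0.30 to -0.10) were lower.

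Classical activation genes had 8 of 19 lower and 11 higher (median 0.33, turned to -0.067 with a mitochondrial limit of 5%), with 4 lower and 8 higher past 2-fold. The chemokines Ccl3, at 174 CPM in MMS and 39.7 CPM in control (2.13, 1.997 to 2.27), and Ccl4 (2.61, 2.44 to 2.77) were higher, and the interferon-induced Cxcl10 (-1.10, -1.68 to -0.55) and Ccl5 (-1.44, -1.94 to -0.96) lower. Monocyte genes had 5 of 14 lower and 9 higher (median 0.33), with 0 lower and 3 higher past 2-fold, among them Fn1 at 2485 CPM in MMS and 1079 CPM in control (1.20, 1.17 to 1.23) and Plac8 (1.99, 1.29 to 2.73). Vcan (-0.65, -0.76 to -0.55) and Hp (-0.27, -0.76 to 0.20) were at the low end. Fn1 is a gene of fibroblasts too, and fibroblast markers summed to 505 CPM in MMS and 315 CPM in control macrophages. Their part in its value was not tested.

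Paralogs of the 10 genes had 4 of the 9 with enough UMIs lower and 5 higher (median 0.15), with 1 lower and 2 higher past 2-fold. Retn, the resistin relative of Retnla, had 6 UMIs in MMS and 88 in control macrophages (-2.91, -4.40 to -1.73). Its control level was 5.59 CPM in macrophages, against 38.5 CPM in endothelial-like and 3.96 CPM in fibroblast-like cells. In MMS these levels were 0.744, 6.57 and 0.568 CPM. The part of free RNA in the Retn ratio was not tested. Cd44, a hyaluronan receptor related to Lyve1, was level (-0.01, -0.07 to 0.05). Havcr2, of the family of Timd4, was higher (0.44, 0.27 to 0.60), as was the transglutaminase Tgm2 (0.15, 0.04 to 0.26). Retnlg was at 10855 CPM in MMS and 1213 CPM in control neutrophil-like cells, against 3.97 CPM and 0 UMIs in macrophages. Its transcript end is 81.9% identical to that of Retnla and shares no stretch of 50 bases with it.

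Over the 11 macrophage units, levels of 4 resident receptors went together (Pearson r of log2(CPM + 10)): Lyve1 with Folr2 0.92, with Timd4 0.90 and with Vsig4 0.88. Retnla went against Vsig4 (-0.66) and Arg1 (-0.62), and Mrc1 went with Cd163 (0.72) but not with Vsig4 (-0.43). Units of a library share its depth and free RNA, so these values are descriptions. Of all other genes, those most like Retnla were Il18 (0.96), Batf and Batf3. Those most like Arg1 were Mmp14 (0.90), Pkm and Psmd2, and those most like Chil3 were Fam49b (0.94), Ifngr1 and Thbs1. Arg1 had 67 UMIs in MMS sub-cluster 3 and at most 11 in any other unit. Chil3 had 155 UMIs in MMS and 81 in control sub-cluster 7, and at most 27 in any other unit. Correlations with Arg1 or Chil3 thus rest on few units. The closest to Mrc1 were Ap2a2 (0.98), Cfb and Hnmt, to Cd163 Ripk1 (0.95), Kitl and Egfr, and to F13a1 Stard8 (0.98), Tceal8 and Sumo3. The closest to Folr2 were Laptm4a (0.98), Cmah and Etv1, to Lyve1 Rnf7 (0.97), Agmo and Dennd4c, to Timd4 Sema6a (0.96), Xlr and Pea15a, and to Vsig4 Arsb (0.98) and Adam15.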

How the data were processed

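Each library is a matrix of raw UMI counts per gene and cell barcode, deposited by the authors and made with Cell Ranger, version 5.0.0 per the file headers and 2.0.0 with mm10 per the submitters' processing notes. No column was left unmapped (0). Cells with at least 1000 UMIs, 500 genes and at most 10% mitochondrial UMIs were kept, and doublets called with scrublet (expected rate 0.06; 106 in MMS and 184 in control) were removed. Cells were normalised to 10000 UMIs and clustered with scanpy 1.11.5 and igraph 0.11.9 (2000 variable genes without the 10 genes described, 30 components, 15 neighbours, resolution 1). Clusters were named from marker lists, with score thresholds (2.5, a lead of 0.3 and at least 3 markers; 0.75 for sub-clusters) set after the clusters were seen. Since names were rebuilt here, another naming could move cells between classes.

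UMIs were summed per library and class and given as CPM. Ratios have exact conditional binomial 95% intervals and shares exact Clopper-Pearson intervals (scipy 1.17.1). PCR copies beyond the UMIs and differences between mice are outside them, and the ratio intervals also leave out the spread of UMIs between cells. The share that 0 cells allows is 3 counts of the cells looked at, which is not the upper Clopper-Pearson bound. A ratio against 0 UMIs uses a floor of 3 counts per library and is a bound, and no ratio is given where both libraries hold 3 or fewer. The ratios were tested on simulated class sums, drawn without cells, so the simulation shows nothing about the spread between cells. Genes needed 10 UMIs over both libraries to be counted, except Arg1, which stayed among the 10 in cluster 4 and the MHC class II high subset. The genes and lists were chosen with earlier results of these data known. The genes named from each list are the 2 highest and 2 lowest log2 ratios with at least 50 UMIs, and those named for likeness are the 3 with the highest correlation, except 1 gene that is not reported here. Loci come from GENCODE M21, which held 32235 of the 32285 gene identifiers. Promoters come from RefSeq, with windows for 8 of the 10 genes. Alternatives covered cell filters, resolution, scaling (edgeR 4.0.16 for TMM factors), thinning, free RNA and class makeup.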

Additional observations from a re-analysis of the deposited data

Results flagged for a closer look

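Cd163 stood in opposite directions between macrophage clusters, with a log2 ratio of MMS over control of 0.56 in lining-like cluster 18, against -0.33 in interstitial resident-like cluster 3 and -3.29 in MHC class II high cluster 4. The difference between clusters was not tested.

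F13a1 did the same, with 0.26 in cluster 18, against -0.23 in cluster 3 and -1.65 in cluster 4. This difference was not tested either.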

How the results depend on the processing

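Of the single-gene ratios past 2-fold, that of Chil3 turned round, to -2.48 with a mitochondrial limit of 5%, where 156 MMS and 625 control macrophages remained. Among the smaller ones Mrc1 turned, to 0.41 with the same makeup of the 3 clusters, and F13a1 turned in the alternatives that did not keep its sign. The number of genes lower in MMS ran from 6 (same makeup of the 3 clusters) to 9 (mitochondrial limit 5%). The median of the 10 was -0.93 with the 5% limit, -0.38 with a minimum of 500 UMIs and -0.39 at cluster resolution 0.5. It was -0.13 with the same sub-cluster makeup (1163 cells), -0.40 after thinning and -0.60 with the free RNA level taken off. Among alternatives chosen after seeing the data it was -0.23 with dendritic-like cells added, -0.44 with the same makeup of the 3 clusters and -0.38 without the 5 highest cells. Over 17 alternatives, Retnla ran from -5.70 to -3.05, Arg1 from 2.91 to 4.19, Mrc1 from -0.42 to 0.41, Lyve1 from -1.18 to -0.38, Timd4 from -1.43 to -0.42, Vsig4 from -0.80 to -0.01 and F13a1 from -1.63 to 0.16, with the sign of F13a1 kept in 12. The -1.63 comes from taking off the level in fibroblast-, endothelial- and mural-like cells, which for F13a1 may hold the fibroblasts' own reads. Scaling by median ratio or TMM put the median of all genes at -0.01 and 0.00, against 0.01 by CPM.

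The share of cells with at least 3 of the 10 genes was 87.3% in MMS and 96.6% in control without thinning, 83.1% and 94.0% when cells were thinned to the deepest of the levels tried, and 51.7% and 72.8% with 2 UMIs needed per gene. Within clusters it was 83.1% and 94.8% (cluster 3), 9.62% and 37.7% (cluster 4) and 77.3% and 97.3% (cluster 18). In the MHC class II high subset, 5 genes were lower when the 10 genes were kept for clustering, against 8 in the main setting. At resolution 0.5 the medians of the lists were 0.43 for targets of alternative activation, -0.24 for resident genes and 0.54 for classical activation. With the 5% limit they were -0.32 for resident genes, 0.039 for scavenger receptors, 0.29 for arginine genes and -0.067 for classical activation. Monocyte genes were at 0.83 at resolution 2.0 and 0.97 with a limit of 20%. The cause of these shifts was not tested. Of the shares of cells with a gene, 18 of 80 values stayed within their interval under an alternative, and of the co-detection shares 18 of 58.

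No paired analysis was possible because each group has 1 library and no result comes from a test. Leaving out a replicate was not possible for the same reason. A gate on markers in place of clusters kept 3 MMS and 32 control cells and gave no value, nor did leaving out monocyte-like cells, since no sub-cluster took that name. Depth limits Arg1 and Chil3 most, with 13 and 81 UMIs in control macrophages.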
